A study of Mus musculus with 4 samples.

Results

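The 8 genes described here, Acta2, Tagln, Cnn1, Myl9, Mylk, Myh11, Oxtr and Des, encode parts of the contractile machinery of smooth muscle, and they were chosen by symbol from the 32285 genes of the count files. They were followed in 4 single-cell RNA libraries of mammary tumors from mice aged 17 to 18 weeks. Each library is taken here as 1 mouse, which the sources do not state outright. The Frmd8-floxed and PyMT lines were on a C57BL/6 background, and none is given for the MMTV-Cre line. Coat color told the genotypes apart, yellow with MMTV-Cre and black without it. All 4 mice carried the PyMT transgene, which drives mammary tumors, and 2 floxed alleles of Frmd8. Replicates 1 and 3 lacked MMTV-Cre (MMTV-Cre-; Frmd8fl/fl; PyMT, written Cre-), and replicates 2 and 4 were Cre+ littermates in which the recombinase is driven in the mammary epithelium. Cells passed a fluorescence-activated sort before loading, whose gate is not given in the sources used here, and the cell names below were rebuilt from marker genes. The Ensembl identifiers of the genes in the files are ENSMUSG00000035783 (Acta2), ENSMUSG00000032085 (Tagln), ENSMUSG00000001349 (Cnn1), ENSMUSG00000067818 (Myl9), ENSMUSG00000022836 (Mylk), ENSMUSG00000018830 (Myh11), ENSMUSG00000049112 (Oxtr) and ENSMUSG00000026208 (Des).

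Smooth muscle shortens when calcium and calmodulin switch on the kinase encoded by Mylk, which phosphorylates the regulatory light chain (Myl9) of the smooth muscle myosin motor (Myh11) so that it pulls on filaments of smooth muscle actin (Acta2). Transgelin (Tagln) and calponin (Cnn1) bind those filaments, and desmin (Des) forms the intermediate filaments of muscle cells. In the mammary gland the same genes are used by the myoepithelial cells around the ducts and alveoli, which are of epithelial origin and eject milk when oxytocin binds its receptor (Oxtr), and by the mural cells of blood vessels (pericytes and vascular smooth muscle). Activated fibroblasts can use part of the set, Acta2 and Tagln above all. Many of these genes are switched on by serum response factor (SRF) at a short A/T-rich element called the CArG box.

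The 250 bases before the start of Acta2 and of Myl9 are shown because the levels of these 2 genes followed each other more closely than those of any other pair among the 8 (Pearson r = 0.97 over 24 sums of cells from 6 cell classes in 4 libraries, which share depth and free RNA). They are from RefSeq on GRCm38.p6, Acta2 at chr19:34255374-34255623 on the minus strand and Myl9 at chr2:156775214-156775463 on the plus strand, and capitals mark a CArG box or a copy with 1 mismatch in its 6-base A/T core.
Acta2: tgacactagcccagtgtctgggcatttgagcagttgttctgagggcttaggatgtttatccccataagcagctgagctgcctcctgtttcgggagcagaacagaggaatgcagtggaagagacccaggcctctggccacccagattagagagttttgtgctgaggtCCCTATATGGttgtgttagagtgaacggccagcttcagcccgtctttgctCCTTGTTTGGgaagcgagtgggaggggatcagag
Myl9: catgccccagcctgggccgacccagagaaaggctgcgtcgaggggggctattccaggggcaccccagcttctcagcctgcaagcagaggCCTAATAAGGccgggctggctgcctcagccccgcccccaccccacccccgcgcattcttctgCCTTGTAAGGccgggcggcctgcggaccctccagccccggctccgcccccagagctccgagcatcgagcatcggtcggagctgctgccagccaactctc
The element reads alike on both strands, so 1 search covered both. Acta2 held 2 copies with 1 mismatch, starting 84 and 34 bases before its start, and Myl9 held an exact copy at 161 and a copy with 1 mismatch at 99. RefSeq promoters were at hand for 6 of the 8 genes, and the windows of Mylk, Cnn1, Oxtr and Des held neither form. Of all 32851 promoters, 1.47% held an exact copy and 8.59% an exact copy or one with 1 mismatch.

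Barcodes with at least 1000 UMIs (unique molecular identifiers, the counted RNA molecules) and at most 20% mitochondrial UMIs were kept. They numbered 4922 and 5918 in Cre- replicates 1 and 3, and 5609 and 7123 in Cre+ replicates 2 and 4, with medians of 12455 to 13072.5 UMIs and 107848230 to 134882211 UMIs in all. Frmd8, the targeted gene, stood at 25.1 and 24.7 CPM (UMIs per 1000000 UMIs of the same cells) in the Cre- libraries and at 11.3 and 12.9 in the Cre+ libraries. Between 6 and 16 barcodes were shared by a pair of libraries.

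A marker rule of at least 2 UMIs was used for each class: Krt14 plus Krt5, the basal keratins, for myoepithelial cells, Rgs5 plus Notch3 for mural cells, and Pdgfra plus Lum for fibroblasts. A cell had to meet 1 rule only, and mural cells, fibroblasts and endothelial cells (Pecam1 plus Cdh5) had to lack Epcam, the epithelial adhesion molecule. Immune cells held Ptprc, and luminal cells held at least 4 UMIs of Epcam, Krt8 and Krt18 and met no other rule. The exclusion mattered for mural cells: of the 599, 230, 456 and 256 barcodes that met the Rgs5 and Notch3 rule alone (values of 4 libraries are given first for the Cre- mice, replicates 1 and 3, and then for the Cre+ mice, replicates 2 and 4), 87.0%, 67.8%, 86.2% and 78.1% also held an Epcam UMI. It left 64, 57, 49 and 43 mural cells, beside 153, 266, 360 and 96 fibroblasts and 142, 290, 312 and 614 cells with Krt14 or Krt5. In the mural cells Rgs5 stood at 11007, 8587, 11063 and 3103 CPM, so Cre+ replicate 4 was low. Mural cells of Cre+ replicate 4 also held Lgals7, an epithelial gene, at 688 CPM, against 4.84 to 10.7 in the others. Cells with a UMI of the pericyte markers Kcnj8, Abcc9 or Higd1b held 10823 of the 10984 Acta2 UMIs of the mural class. The mural values thus describe mostly pericytes and say little of vascular smooth muscle.

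No UMI of any of the 8 genes was found in 70.4%, 48.3%, 69.6% and 53.7% of the cells with Krt14 or Krt5, while the same held for 0%, 8.77%, 0% and 4.65% of mural cells. With every cell thinned to 1000 UMIs the shares were 84.5%, 90.0%, 93.9% and 71.2% against 14.1%, 15.8%, 8.16% and 11.6%. A cell without a UMI may still express the gene. Most of all cells with Krt14 or Krt5, 123, 261, 296 and 311, held as many or more UMIs of the luminal keratins Krt8 and Krt18 as of Krt14 and Krt5. Only 19, 29, 16 and 303 cells, or 13.4%, 10%, 5.13% and 49.3%, had mostly basal keratin. Since the label myoepithelial does not hold for the class as a whole, its cells are called Krt14/Krt5 cells here, and those with mostly basal keratin are called basal-keratin cells. Trp63, a transcription factor of basal cells, stood at 134, 105, 95.1 and 121 CPM in basal-keratin cells and at 11.7, 3.19, 5.67 and 2.02 in the rest.

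**Figure D1:**
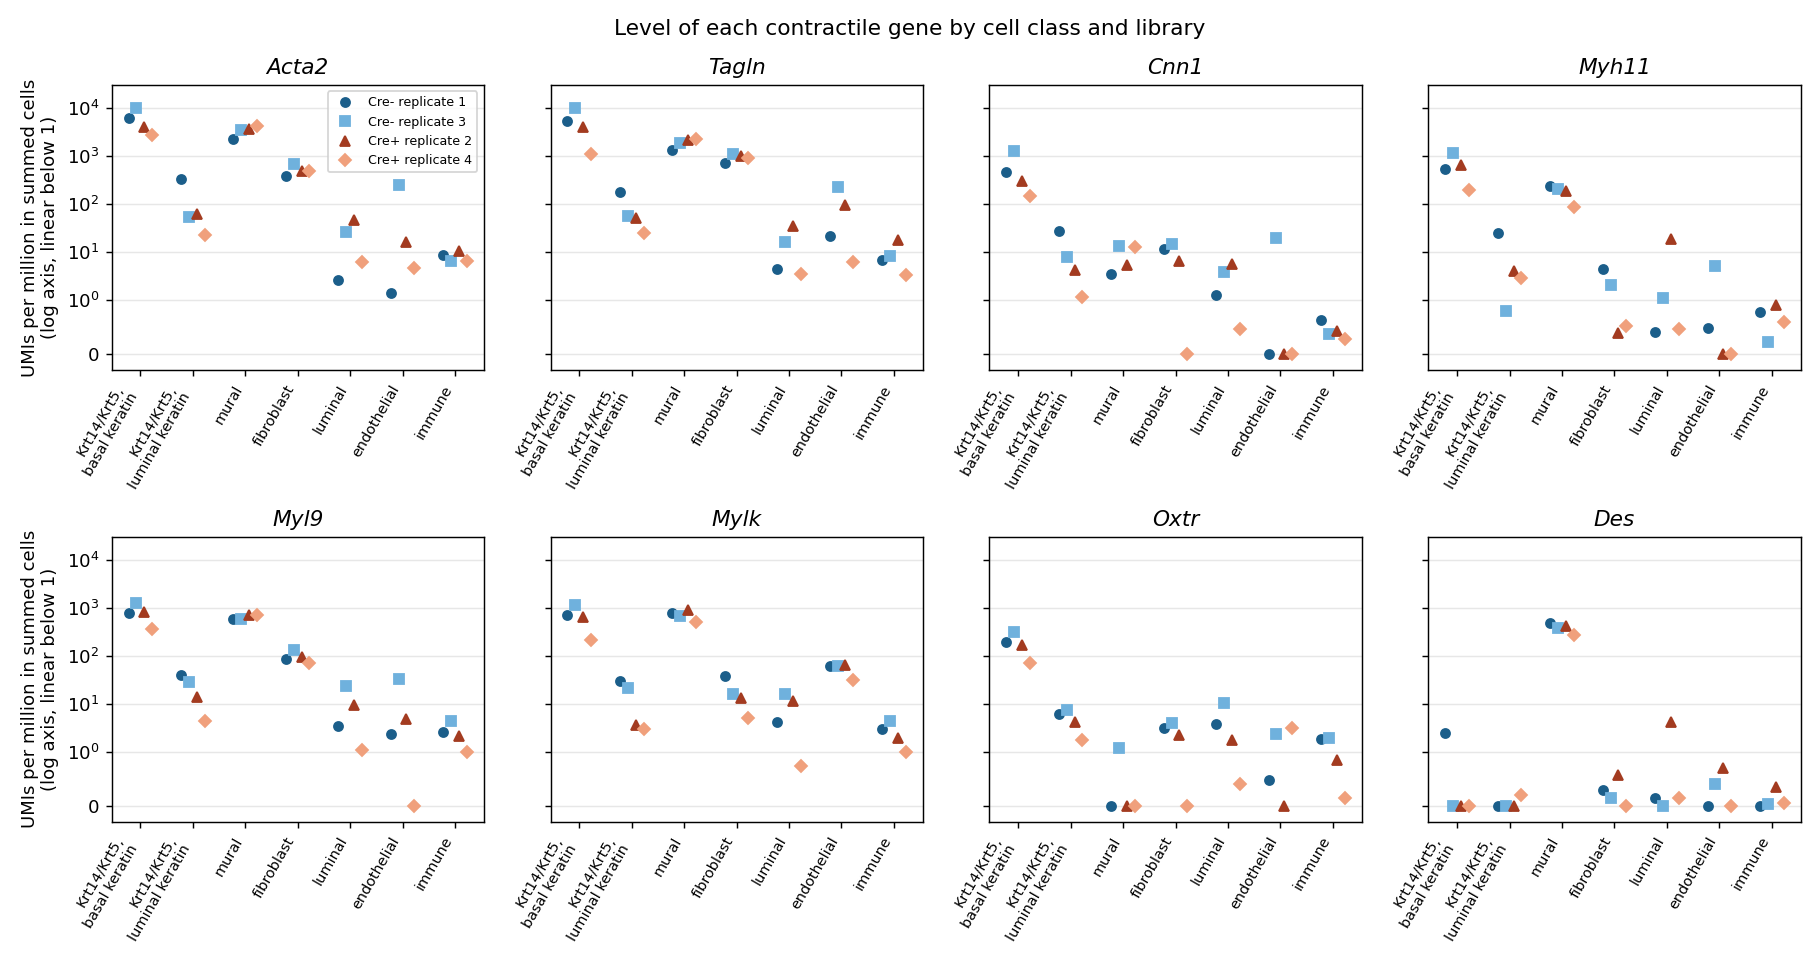
Level of the 8 genes, in CPM of the summed cells on a log axis that is linear below 1, in 7 cell classes, with 1 point per library (circle Cre- replicate 1, square Cre- replicate 3, triangle Cre+ replicate 2, diamond Cre+ replicate 4). Des stood at 272 to 479 in mural cells and at 0 to 2.44 in basal-keratin cells, and Oxtr at 0 to 1.21 and 72.4 to 316.

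Acta2, the actin of the thin filament, was the most abundant of the 8 genes in basal-keratin cells of 3 libraries and in mural cells of all 4. It stood at 6306, 10095, 3937 and 2728 CPM in basal-keratin cells. In mural cells it stood at 2264, 3418, 3662 and 4224, a range that overlaps that of the basal-keratin cells. Fibroblasts held 386, 696, 487 and 488, below every mural value, and immune cells, which should lack the gene, held 6.5 to 10.6.

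Tagln had the same order of class means as Acta2 but stood above it in fibroblasts. It was at 5265, 10044, 3959 and 1104 CPM in basal-keratin cells, at 1331, 1890, 2102 and 2259 in mural cells, and at 715, 1099, 989 and 910 in fibroblasts. The fibroblasts thus held 158 to 203 UMIs of Tagln for each 100 of Acta2, against 53.5 to 58.8 in mural cells, and these ranges did not overlap. In fibroblasts of all 4 libraries Tagln was the highest of the 8.

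Cnn1 was all but absent from these mural cells, a class made up mostly of pericyte-marked cells. It stood at 462, 1255, 307 and 148 CPM in basal-keratin cells and at 3.57, 13.3, 5.39 and 13.1 in mural cells, where it rested on 3, 11, 4 and 11 UMIs. Fibroblasts held 11.9, 14.8, 6.54 and 0. Every basal-keratin value was thus above every mural and fibroblast value, although mural cells held more Acta2 than fibroblasts.

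Myh11, the heavy chain of the smooth muscle motor, was shared by basal-keratin and mural cells and was close to absent from fibroblasts. It stood at 545, 1138, 651 and 196 CPM in basal-keratin cells, at 235, 202, 186 and 88.2 in mural cells and at 4.53, 2.12, 0.385 and 0.515 in fibroblasts. Within each library the basal-keratin value was the higher of the first 2, but the lowest basal-keratin value lay within the mural range.

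The light chain and its kinase differed less between the contractile classes. Myl9 stood at 769, 1237, 798 and 360 CPM in basal-keratin cells, at 573, 598, 696 and 709 in mural cells, and at 85.5, 134, 95.2 and 72.1 in fibroblasts. Mylk stood at 694, 1137, 651 and 209 in basal-keratin cells, at 797, 660, 887 and 516 in mural cells, and at 37.4, 16.2, 13.6 and 5.15 in fibroblasts. Endothelial cells held 31.9 to 65.6 of Mylk, above the fibroblasts of their own library in all 4.

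Oxtr, the receptor through which oxytocin contracts myoepithelial cells, was found in basal-keratin cells at 193, 316, 168 and 72.4 CPM. Mural cells held a single Oxtr UMI over the 4 libraries. For the 3 mural sums with none, a count of 0 allows up to 3.57, 4.04 and 3.58 CPM. Fibroblasts held 3.11, 4.09, 2.31 and 0, and luminal cells 3.77, 10.4, 1.8 and 0.396, all below the basal-keratin cells of the same library. Because the luminal cells are so many, they still held 32.0%, 43.3%, 18.3% and 2.82% of all Oxtr UMIs, more than the 19.8% and 24.3% in the Krt14/Krt5 cells of Cre- replicates 1 and 3.

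Des had the opposite pattern. It stood at 479, 385, 415 and 272 CPM in mural cells, where 87.5%, 75.4%, 91.8% and 76.7% of cells held a UMI. The Krt14/Krt5 cells held 3 Des UMIs over all 4 libraries (1 of them in a basal-keratin cell), and fibroblasts held 8. Levels of different genes are set side by side without a correction for length, since the method counts 1 end of each RNA. No 31-base stretch of the last 500 bases of the longest coding transcript of any of the 8 genes occurred in a transcript of another gene (GENCODE M21).

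**Figure D2:**
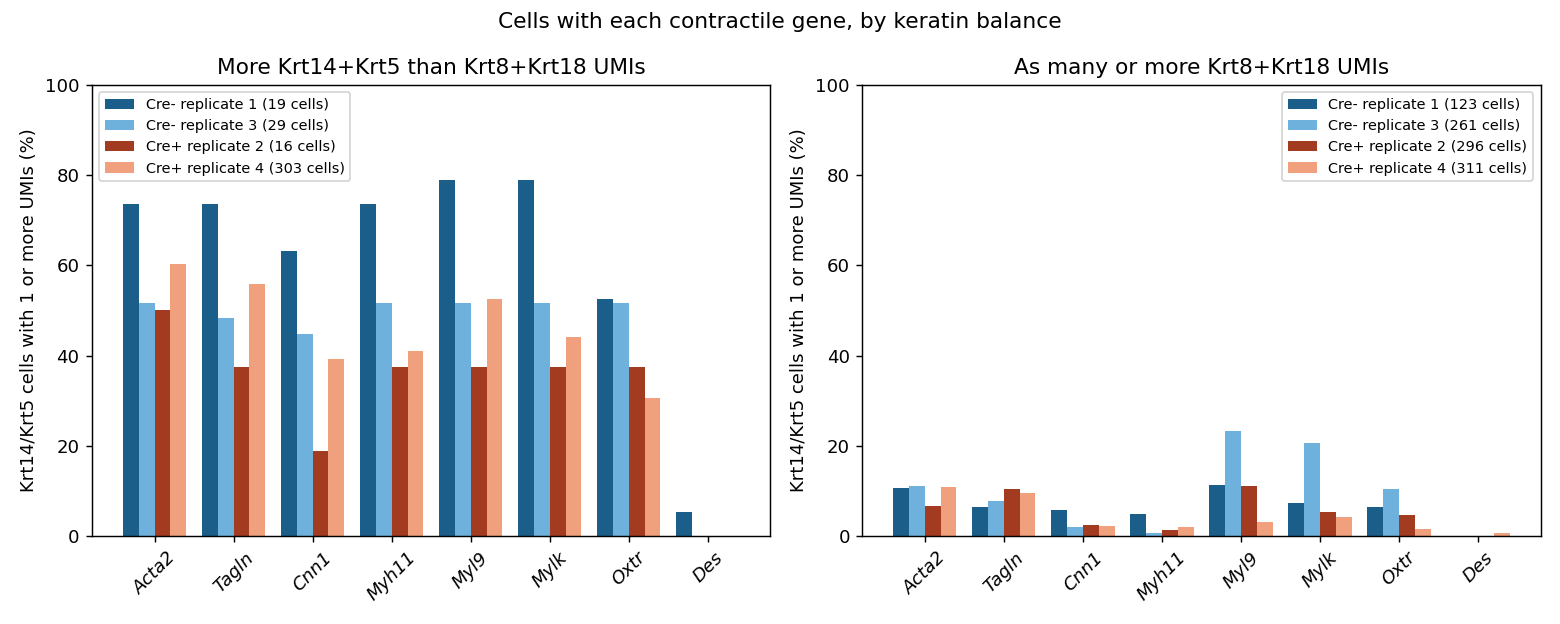
Share of Krt14/Krt5 cells with at least 1 UMI of each gene (percent), left in cells with more Krt14 and Krt5 than Krt8 and Krt18 UMIs and right in the others, with 1 bar per library. For Acta2 the shares were 50% to 73.7% on the left and 6.76% to 11.1% on the right.

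To see which Krt14/Krt5 cells carried the program, cells with mostly basal keratin were compared with the rest of the class. The fit took 2 sums per mouse and was adjusted for genotype, but it did not pair the sums of a mouse. Of all 12153 genes tested, 5.03% were higher in basal-keratin cells (edgeR's quasi-likelihood test, adjusted p under 0.05) and 2.73% were lower, 7.76% in all. All 7 members that could be tested were higher, by a median of 5.89 on the log2 scale against -0.06 over all genes, and Des was too scarce to test. The rise was 5.78 ± 0.64 (SE) for Acta2, a 55.1-fold difference (adjusted p = 0.00143), and 6.38 ± 0.89 for Myh11 (adjusted p = 0.00384). It was 5.13 ± 0.35 for Oxtr, the smallest of the 7 (adjusted p = 0.000324). With the mouse as a block the same 7 were higher, while the count of genes called rose from 943 to 1870. When the keratins were counted in cells thinned to 1000 UMIs, Tagln was no longer called (5.33, adjusted p = 0.164), in a fit that lacks the basal-keratin sum of Cre+ replicate 2 since only 8 of its cells were left. With Rgs5 alone for mural cells and Dcn with Pdgfra for fibroblasts, which changes the cells left in this class, Oxtr was no longer called (4.44, adjusted p = 0.114). The 2 sums of each mouse were formed on keratin genes, none of which is among the 8. With mostly basal keratin, 16 to 303 cells held 68.6%, 93.8%, 53.4% and 98.5% of the Acta2 UMIs of their class.

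The basal-keratin cells varied among themselves. No member was found in 15.8%, 44.8%, 50.0% and 29.4% of them, and the median number of members per cell was 7, 5, 0.5 and 3, at median depths of 12596, 16977, 6089 and 14629 UMIs. Thinned to 1000 UMIs, 21.1%, 48.3%, 62.5% and 44.9% held no member. Cre+ replicate 4 also held keratins of squamous epithelium in these cells, Krt6a at 683 and Krt16 at 405 CPM. In the other libraries Krt6a was at 0 and Krt16 at 0 to 1.66. The 8 genes of the squamous list summed to 1422 CPM there, against 22.0, 31.6 and 73.2 in Cre- replicates 1 and 3 and Cre+ replicate 2. Their part in the lower contractile levels of Cre+ replicate 4 was not tested.

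**Figure D3:**
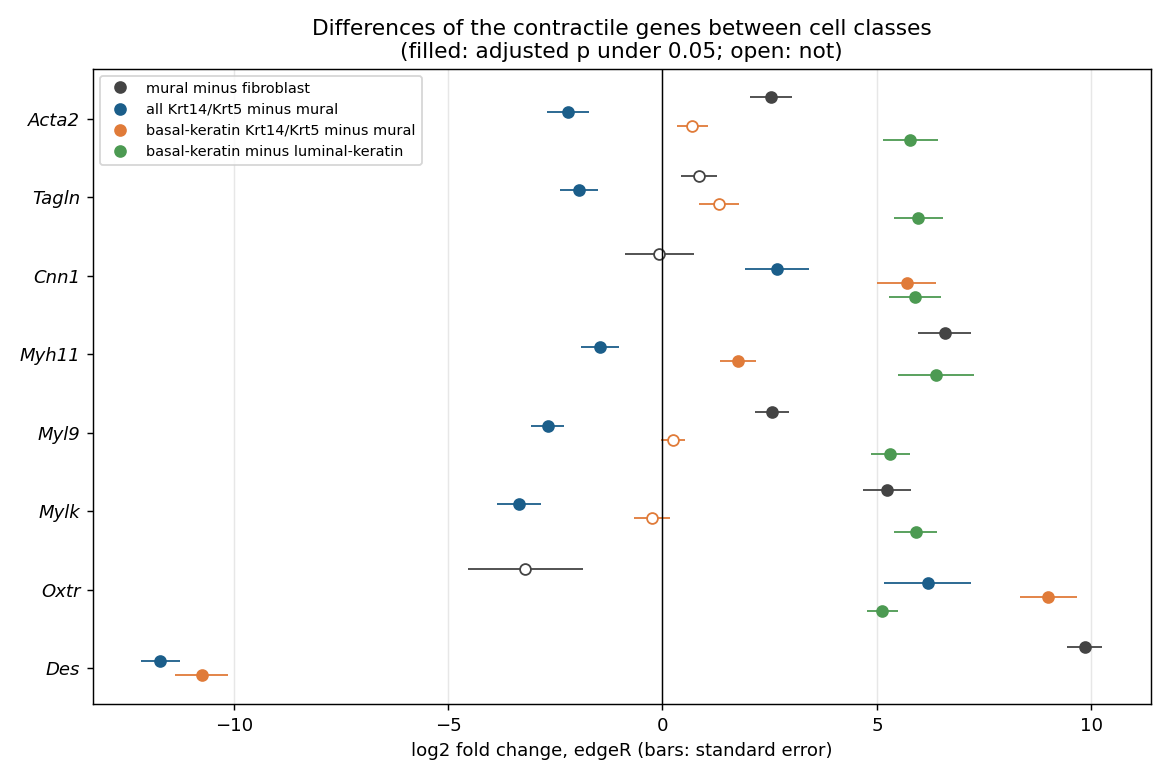
Log2 fold change of each gene in 4 comparisons from edgeR, with bars for the standard error and filled points where the adjusted p was under 0.05 (Des was not tested by keratin balance). Des and Oxtr lie at opposite ends of both comparisons with mural cells, and the change from all Krt14/Krt5 cells to basal-keratin cells moves Acta2 from -2.20 to 0.69.

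The first comparison set all Krt14/Krt5 cells against mural cells, over 12 sums of cells (3 classes of 4 mice). Of all 12788 genes tested, 46.3% differed at an adjusted p under 0.05 (23.7% higher in Krt14/Krt5 cells and 22.6% lower), so that a call alone sets no gene apart. All 8 members passed. Cnn1 was higher in Krt14/Krt5 cells by 2.67 ± 0.74 (SE) on the log2 scale (adjusted p = 0.0113), and Oxtr by 6.18 ± 1.00 (adjusted p = 0.000388). The other 6 were lower, Myh11 by the least (-1.45 ± 0.44, adjusted p = 0.0184) and Des by the most. Pooled over the 4 libraries, Oxtr was 76.7-fold higher in Krt14/Krt5 than in mural cells (95% exact counting interval 13.7 to 3035), and Des was 4642-fold higher in mural cells (1585 to 22541). Such intervals cover counting error only.
Under the marker rules taken alone, without the exclusion of Epcam and of double matches, 1 member passed in place of 8, Des, and Acta2 turned to 0.94. The calls for Cnn1 and Myh11 were lost when Cre- replicate 1 was left out and again when Cre- replicate 3 was left out (2.34 and 2.55 for Cnn1, -1.36 and -1.51 for Myh11). Of 16 alternatives, Cnn1 was called in 12 and Myh11 in 11. The highest adjusted p was 0.405 for Cnn1, with Rgs5 alone for mural cells and Dcn with Pdgfra for fibroblasts. That setting also changes the cells left in the Krt14/Krt5 class. For Myh11 it was 0.901, with markers thinned to 1000 UMIs.

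A second fit, added after the values had been seen, took basal-keratin cells in place of all Krt14/Krt5 cells, since the 2 kinds differed so widely. Of 9496 genes tested, 29.8% differed from mural cells, 14% higher and 15.8% lower. Cnn1, Oxtr and Myh11 were then higher than in mural cells and Des lower. Cnn1 rose by 5.70 ± 0.69 on the log2 scale (adjusted p = 4.39e-05) and Myh11 by 1.76 ± 0.42 (adjusted p = 0.00632). Oxtr was 331-fold higher in the pooled counts (59.2 to 13088). Acta2 (0.69 ± 0.36), Myl9 (0.25 ± 0.29), Mylk (-0.24 ± 0.42) and Tagln (1.32 ± 0.47) did not pass, with adjusted p of 0.172, 0.584, 0.749 and 0.0514. Myh11 was thus called lower with all Krt14/Krt5 cells and higher with the basal-keratin cells alone, while Oxtr, Cnn1 and Des were called in the same direction in both fits. The call for Myh11 was lost in 4 alternatives: without Cre- replicate 3 (1.47, adjusted p = 0.0875), with markers thinned (0.90, adjusted p = 0.142), with Rgs5 alone and Dcn with Pdgfra (1.25, adjusted p = 0.236) and within the study's limits on genes and UMIs (0.79, adjusted p = 0.255). The rule on Dcn and Pdgfra also changes which basal-keratin cells are left. Without Cre+ replicate 4, Acta2 and Tagln were called (1.07 and 1.83). Of 16 alternatives, Tagln was called in 5, Acta2 and Mylk in 2 each and Myl9 in 1.

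Fibroblasts served as the third class. Of the genes tested, 55.3% differed between all Krt14/Krt5 cells and fibroblasts (27.2% higher and 28.1% lower). Among the members, Mylk, Cnn1, Oxtr and Myh11 were higher in Krt14/Krt5 cells and Tagln was lower. Myh11 differed by 5.13 ± 0.59 (adjusted p = 1.82e-05), Cnn1 by 2.60 ± 0.60, Oxtr by 2.99 ± 0.51 and Mylk by 1.89 ± 0.50. Tagln differed by -1.10 ± 0.43 (adjusted p = 0.046), a call that was lost without Cre- replicate 3 (-1.29), without Cre+ replicate 2 (-0.67) and without Cre+ replicate 4 (-1.12). Mylk was not called without Cre- replicate 3 (1.72). With Rgs5 alone for mural cells and Dcn with Pdgfra for fibroblasts, none of Myh11, Cnn1, Oxtr and Mylk was called. Their adjusted p was then 0.362, 0.631, 0.726 and 0.199. In that setting Krt14/Krt5 cells that also met the rule on Dcn and Pdgfra were left out, so the Krt14/Krt5 class changed too. After thinning, the mean share of its cells with an Acta2 UMI was 4.53% in Cre- and 6.12% in Cre+ mice. In the main setting it was 10.3% and 13.3%. Acta2 (0.33 ± 0.47) and Myl9 (-0.13 ± 0.37) did not pass. With basal-keratin cells in their place, a comparison that was not planned either, 7 members were higher than in fibroblasts and none lower. Of all genes 41.9% were called (19.1% higher). Tagln was higher by 2.18 ± 0.48 (adjusted p = 0.00275), a call that was lost with Rgs5 alone and Dcn with Pdgfra (adjusted p = 0.26).

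Between mural cells and fibroblasts 30.5% of genes differed (13.5% higher in mural cells and 17% lower). There, 5 members were higher in mural cells and none lower, with a median of 2.54 over the 8 against -0.04 over all genes. They were Acta2 (2.53 ± 0.50, adjusted p = 0.00259), Myl9 (2.55 ± 0.39), Mylk (5.24 ± 0.57), Myh11 (6.58 ± 0.61) and Des (9.85 ± 0.42). Tagln (0.85 ± 0.42, adjusted p = 0.15), Cnn1 (-0.07 ± 0.81) and Oxtr (-3.19 ± 1.34, adjusted p = 0.0922) did not pass. The same library sums served in all these comparisons, so they are not independent of each other.

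In the deposited depth, the share of cells with an Acta2 UMI was 85.9%, 87.7%, 89.8% and 86.0% in mural cells and 19.0%, 15.2%, 8.97% and 35.3% in Krt14/Krt5 cells. Thinned to 1000 UMIs per cell, the shares were 60.9%, 66.7%, 69.4% and 72.1% in mural cells, 14.8%, 5.86%, 3.85% and 22.8% in Krt14/Krt5 cells and 7.19%, 18.4%, 11.1% and 7.29% in fibroblasts. Immune cells, which should lack the gene, gave 0.55% to 1.03%. The mural cells thus stood above both other classes in each library, and all 3 classes stood above the immune cells.

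Free RNA could be read directly only in Cre+ replicate 4, the library deposited with all barcodes. In its 2078989 barcodes of at most 100 UMIs, Acta2 stood at 173 CPM, Tagln at 87.7, Myl9 at 28.1, Myh11 at 15.7 and Mylk at 13.4. Cnn1 (6.42), Des (5.42) and Oxtr (2.21) were the lowest. For 7 of the 8 genes the basal-keratin cells of that library were above this level, and for Des they were at 0. Its mural cells held Cnn1 at 13.1 and Oxtr at 0. Of the class markers, Krt14 stood at 244 and Krt5 at 57.0 CPM in the free RNA. How far free RNA brought cells over the rule of 2 Krt14 and Krt5 UMIs was not tested.

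Other genes of the contractile pathway were counted in lists. Their differences from mural cells are given for all Krt14/Krt5 cells, a mixed class in which most cells held as much or more luminal keratin. They do not describe basal-keratin cells against mural cells, for which the lists are not given here. Of 10 further genes of the thin filament and the calponin family, 6 were lower in all Krt14/Krt5 cells than in mural cells and none higher, with a median of -1.22, where 22.6% of all genes were lower and 23.7% higher. They included Synpo2, an actin-binding protein (-6.83), and Lmod1, which nucleates actin filaments in smooth muscle (-2.91). Against fibroblasts 6 of the 10 were higher in mural cells (13.5% of all genes), among them Lmod1 by 5.50 and Actg2, the enteric smooth muscle actin, by 3.76. Within the Krt14/Krt5 cells 6 of 9 tested were higher in basal-keratin cells (5.03% of all genes), among them Actg2 (5.98) and Tpm2, a tropomyosin (3.99).

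Of 13 genes of myosin and of light chain control, 9 were lower and 3 higher in Krt14/Krt5 than in mural cells, against the same 22.6% and 23.7% of all genes. Ppp1r14a, an inhibitor of myosin phosphatase, was lower (-5.90 on the log2 scale), as was Prkg1, the cGMP-dependent kinase that relaxes smooth muscle (-4.12). Myh10, a non-muscle myosin, was higher by 3.52. In basal-keratin cells against the rest of the class only 2 of the 13 were higher, Ppp1r14a (4.39) and Prkg1 (2.62), and 1 was lower, Ppp1cb (-1.10), where 5.03% of all genes were higher and 2.73% lower.

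Of 14 tested genes of calcium and oxytocin signalling, 4 were higher and 6 lower in Krt14/Krt5 than in mural cells, with all genes at 23.7% and 22.6%. Kcnma1 and Kcnmb1, the 2 subunits of a calcium-activated potassium channel, went opposite ways (5.80 ± 1.94 and -3.67 ± 0.82). Of 12 genes of dense plaques and intermediate filaments, 7 were lower and none higher, with vimentin (Vim) at -4.43. Of the list of SRF and genes related to it, not all of them its partners, 7 were tested. Of these 2 were lower (Lpp at -0.86 and Tead1 at -0.66), a share close to the 22.6% of all genes.

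The marker lists moved as the class rules set them. All 8 mural markers were lower in Krt14/Krt5 than in mural cells, with a median of -9.12, and 5 of 6 basal markers and all 6 luminal markers were higher. All 6 fibroblast markers were lower in mural cells than in fibroblasts, with Col1a1 still at 1431 to 4641 CPM in mural cells. Dcn, a matrix gene of fibroblasts, was higher in basal-keratin cells than in the rest of the class by 5.28, at 145 to 1505 CPM. Endothelial markers summed to 54.8 to 166 CPM in mural cells and immune markers to 42.4 to 59.6. Of 8 striated muscle markers, between 4 and 6 were at 0 in each mural sum, and of 8 squamous markers Krt16 was higher in Krt14/Krt5 than in mural cells.

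Over the 24 sums, the genes whose level followed the summed 8 members most closely were Sobp (r = 0.91), Nexn (0.89), Kirrel (0.89), Tpm2 (0.89), Acvr1 (0.89), Snai2 (0.89), Cdh2 (0.88), Htra1 (0.88), Cpt1c (0.88) and Jph2 (0.88). For Oxtr they were Plch2 (0.85), Irx4 (0.83) and Wnt7b (0.82), and for Des Kcnk3 (0.99), Rgs5 (0.98) and Fhl5 (0.98). Rgs5 was part of the rule for mural cells. Among the members, Acta2 and Tagln (0.96) and Myl9 and Tagln (0.94) followed each other, while Oxtr and Des had an r of -0.43. These correlations are across classes and libraries that share cells' source and depth, and they are given as a description.

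**Figure D4:**
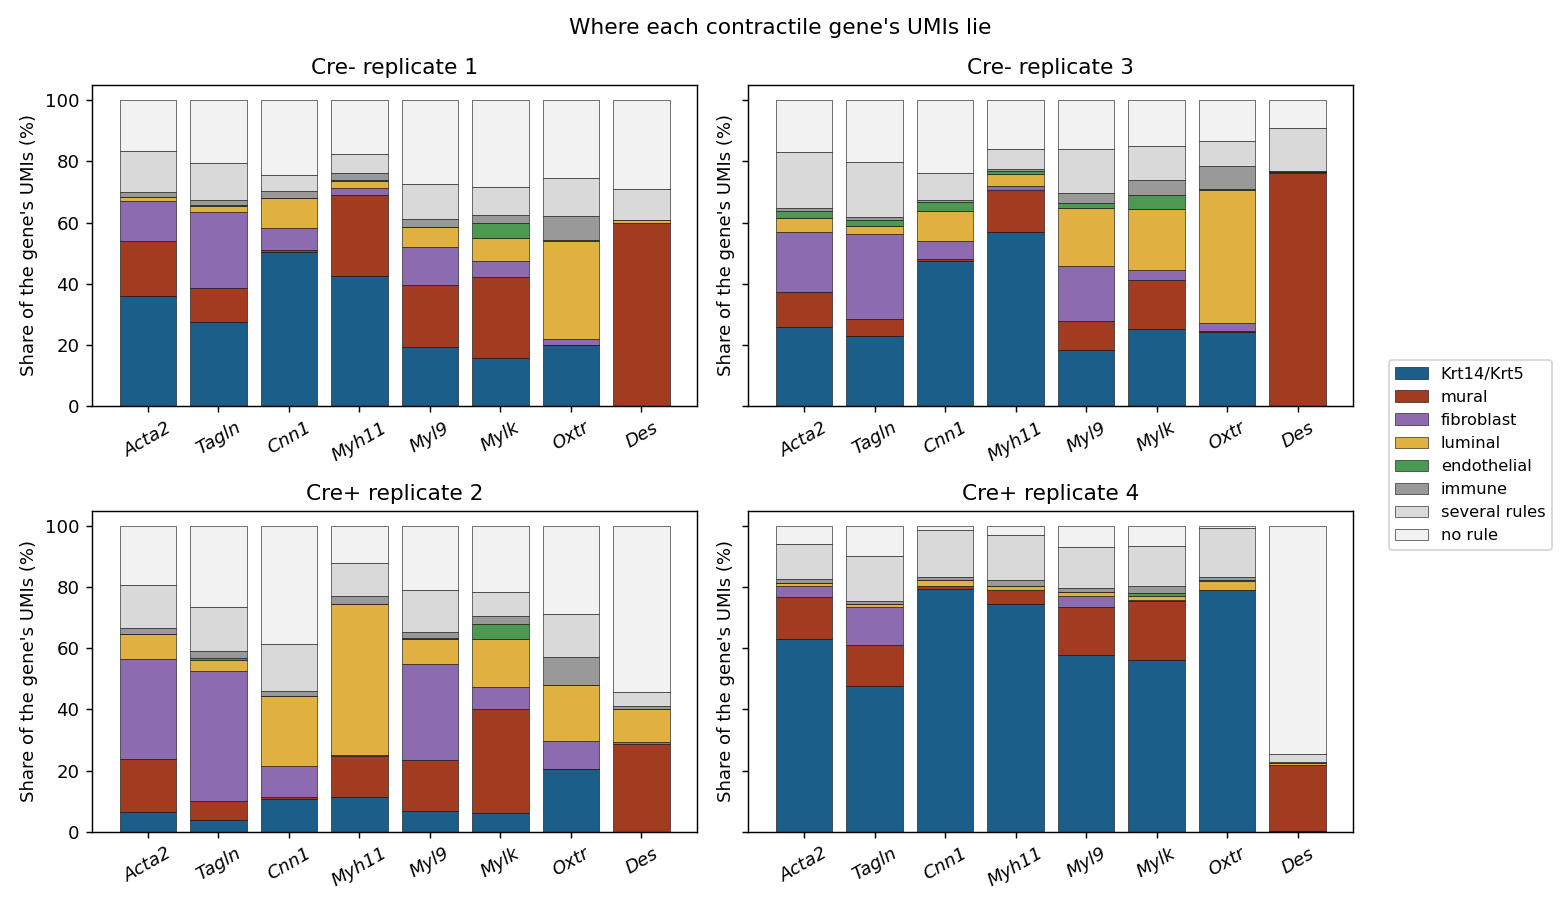
Share of each gene's UMIs (percent) by cell class in each of the 4 libraries, where several rules and no rule are cells that met more than 1 marker rule or none. Mural cells held 21.8% to 76.3% of Des, and no mural sum held over 0.98% of Cnn1.

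A count of where the UMIs lay showed single barcodes that decided a total. Des UMIs numbered 674, 417, 1073 and 1047 in the kept cells, of which mural cells held 59.6%, 76.3%, 28.7% and 21.8%. Barcodes with at least 3 UMIs of the striated muscle genes Acta1, Ckm, Tnnt3 and Mylpf numbered 24, 15, 25 and 26, and they held 11.1%, 0%, 58.7% and 64.7% of the Des UMIs. In Cre+ replicate 4 that was a single barcode, with 677 Des and 6289 striated muscle UMIs among 49828. Outside those barcodes, 96.5%, 98.3%, 93.2% and 94.9% of Des UMIs lay in barcodes that met the Rgs5 and Notch3 rule.

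In Cre+ replicate 2 the luminal cells held 49.5% of all Myh11 UMIs, and 86.4% of those came from 1 barcode. It held 445 Myh11, 527 Acta2, 250 Tagln, 162 Mylk, 109 Des and 61 Cnn1 UMIs among 42324, with 58 of Epcam, Krt8 and Krt18 together and 1 of Rgs5 and Notch3. A barcode of luminal cells with 835 Acta2 and 126 Cnn1 UMIs was found in Cre- replicate 3. Such barcodes were kept, since no caller of doublets was run.

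Genotype was compared within each class, 2 mice against 2. In Krt14/Krt5 cells Acta2 stood at 941 and 795 CPM in Cre- and at 134 and 1008 in Cre+ mice, so the groups overlapped. The difference of Acta2, -0.52 in the fit over all 4 libraries, was -2.66 without Cre+ replicate 4 and turned to 0.31 without Cre+ replicate 2. The other members of that class were low in Cre+ replicate 2 too, with Myl9 at 28.4 against 114 to 134 and Myh11 at 15.8 against 73.3 to 84.8 in the other 3 libraries. By edgeR's test 0 of 12660 genes were called in these cells, 0 of 8088 in mural cells and 0 of 11813 in fibroblasts (percent called 0 in each). At an unadjusted p under 0.05 there were 455, 321 and 656 genes, and DESeq2 called 45, 3 and 74, none of them a member. In mural cells Acta2 differed by 0.49 ± 0.28 and Myh11 by -0.67 ± 0.35 between Cre+ and Cre- mice. Without Cre+ replicate 2 Myh11 was called there (-1.27, adjusted p = 0.0192), along with 3.23% of all genes called lower. In fibroblasts Cnn1 was called without Cre+ replicate 2 (adjusted p = 0.0235, 0.343% of all genes called lower), where the 1 remaining Cre+ library held no UMI of it.

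The comparison of genotypes within basal-keratin cells was not among those planned. In these cells every tested member had a lower mean in the Cre+ mice, as did 53.3% of all genes tested, but none was called in the fit over all 4 libraries. Acta2 was at 6306 and 10095 in Cre- and at 3937 and 2728 in Cre+ mice, which do not overlap, and differed by -1.22 ± 0.57 (adjusted p = 0.707, 0 of 6552 genes called, percent called 0). Tagln, Cnn1, Mylk and Oxtr did not overlap either, while Myl9 and Myh11 did. Of all genes tested, 23.1% were lower in Cre+ mice with no overlap and 14.8% higher. An unadjusted p under 0.05 was reached by 477 genes, Cnn1 among them (-1.88 ± 0.60), and DESeq2 called 11. With no filter on low counts Cnn1 was called over the 4 libraries (-1.96, adjusted p = 0.0201, 0.894% of all genes called lower). Without Cre+ replicate 2, which gave 16 cells, 7 members were called lower, among 478 of 8140 genes (5.87%). Without Cre+ replicate 4, Acta2, Cnn1 and Tagln were called lower, among 154 of 6682 genes (2.3%). With markers thinned to 1000 UMIs, where Cre+ replicate 2 dropped out with 8 cells, 7 members were called lower, among 329 of 5139 genes (6.4%). In each of these last 3 fits the 1 remaining Cre+ library was assumed to vary like the others. Without Cre+ replicate 2, and with markers thinned, it was Cre+ replicate 4, whose basal-keratin cells also held squamous keratins, as given above. Under the main rules they were 49.3% of its Krt14/Krt5 cells, against 5.13% to 13.4% in the other libraries. The part of this in the lower levels was not tested. The median depth of basal-keratin cells was 12596 and 16977 UMIs in Cre- and 6089 and 14629 in Cre+ mice. Over these cells, the share with an Acta2 UMI was 73.7% and 51.7% in Cre- and 50.0% and 60.4% in Cre+ mice, which overlap. After thinning to 1000 UMIs it was 73.7% and 48.3% against 37.5% and 44.9%, which do not.

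The genotype effect was also compared between Krt14/Krt5 and mural cells with an interaction term. The difference was -0.98 ± 0.98 for Acta2 and -1.82 ± 0.68 for Tagln (adjusted p = 0.916 and 0.826), and no member was called, with 0.00752% of 13295 genes called. The size of this difference depended on which cells and libraries were taken. Over the alternatives it ran from -2.99 without Cre+ replicate 4 to -0.02 within the study's limits for Acta2, and from -2.93 to 0.19 in the same 2 settings for Tagln. With no filter on low counts, Tagln was called (-1.82, adjusted p = 0.00716), but the share of all genes called in that fit is not given here. The share of cells with an Acta2 UMI after thinning was compared as Cre+ minus Cre-. It differed by 3.00 percentage points in Krt14/Krt5 cells and by 6.94 in mural cells (exact permutation test, two-sided, p = 1 and 0.333). In fibroblasts the difference was -3.60. With 2 mice against 2, 0.3333 is the smallest p that test allows.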

How the data were processed

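UMI counts per gene and barcode were deposited by the authors as raw counts, made with Cell Ranger (per the file headers, version 4 for replicate 4 and 6.1.2 for the rest). The labels name hg38, while the gene identifiers are those of mouse, so no coordinates were taken from the files. The file of replicate 4 held 2582424 barcodes and the others 7020 to 8017. Cells had been sorted before loading, which may shift the shares of cell types.

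The members and gene lists were chosen with earlier results of these data known. Barcodes that met several marker rules were left out of the classes, and no doublet caller was run. Counts were summed per mouse and class (at least 10 cells) and scaled to CPM for description. Sums were tested with edgeR 4.0.16 in R 4.3.3 (quasi-likelihood, TMM, filterByExpr), and p-values were adjusted by Benjamini-Hochberg across every gene in the fit, with calls made below 0.05. DESeq2 1.42.0 was run for comparison. Genes named beside the 8 members were called genes of the lists and those most alike in level. Each mouse gave 1 sum to each class, so the replicate number pairs sums of different classes, and their deviations from the class means correlated with r from -0.05 to 0.30.

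On simulated counts of Krt14/Krt5 against mural sums (12393 genes), 74 of 100 genes changed by 2 on the log2 scale were called. So were 19 of 100 changed by 1, with 9 others. All other genes had the same mean in every class, and the sums were drawn independently. In the data 46.3% of genes were called in this comparison, so these rates do not carry over to it.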

Additional observations from a re-analysis of the deposited data

Results flagged for a closer look

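In the Krt14/Krt5 cells, 5 of the 8 genes had 1 library far from the other 3, and it was Cre+ replicate 2 each time. Acta2 stood at 134 CPM there against 795 to 1008 in the others, Myl9 at 28.4 against 114 to 134, Mylk at 15.4 against 78.1 to 104, Oxtr at 7.16 against 25.2 to 30.4 and Myh11 at 15.8 against 73.3 to 84.8. The class holds 5.13% basal-keratin cells in that library, against 10% to 49.3% in the others. The part of that share in the low levels was not tested. In mural cells Oxtr stood apart at 1.21 CPM in Cre- replicate 3, which is 1 UMI, against 0 in the others. The 8 genes in 3 classes made 24 groups of 4 libraries, and chance gives about 1 such group in 20. The groups are not independent, since the 5 genes were counted in the same sums of cells. The flags therefore cannot be counted as separate departures.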

How the results depend on the processing

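In 184 recomputed values a count of members called stayed within 1.5 times the value reported, or a share kept the direction of its genotype difference. Counts moved further in 13, and 1 share turned. Unthinned shares under the other settings are not in these counts. Among them the direction turned in some settings for mural cells and in some for fibroblasts. A share that kept its direction could still change in size. The mural difference of 6.94 percentage points was 0.28 within the study's limits and 13.9 with Rgs5 alone for mural cells. Where a count of members called is given below without the percent of all genes called, it sets no member apart. With the marker rules taken alone, 1 member was called between Krt14/Krt5 and mural cells, where Acta2 (0.94), Myl9 (0.57), Mylk (0.10), Tagln (0.74) and Myh11 (1.80) turned to higher, and the genes called fell from 5926 to 155. The same rules gave 8 for basal-keratin against mural cells, with 1126 of 14534 genes called and Mylk at 3.39. They turned Acta2 (-0.68), Myl9 (-0.64), Tagln (-1.93) and Oxtr (0.055) between mural cells and fibroblasts, and the mural share of cells with Acta2 by genotype (-2.33 percentage points). With markers counted in cells thinned to 1000 UMIs, 5 members were called between Krt14/Krt5 and mural cells, and 7 by genotype in basal-keratin cells in a fit that Cre+ replicate 2 did not enter (8 cells). Myl9 (1.65) and Tagln (0.60) then turned against fibroblasts, and Myl9 (-0.14) in basal-keratin against mural cells. The setting with Rgs5 alone for mural cells and Dcn with Pdgfra for fibroblasts also changes the Krt14/Krt5 cells left. With it, Acta2 (-2.31), Mylk (-1.24) and Cnn1 (-0.57) turned between Krt14/Krt5 cells and fibroblasts. Acta2 (-0.23) and Myl9 (-0.72) turned in basal-keratin against mural cells, where 2 members were called. Within the study's limits on genes and UMIs, Myl9 (0.64) and Tagln (0.97) turned against fibroblasts, Myl9 (-0.47) in basal-keratin against mural cells, Des (0.30) in basal-keratin cells against fibroblasts, Acta2 (0.28) by genotype in Krt14/Krt5 cells and Tagln (0.19) in the interaction. With no filter on low counts, 3 members were called by genotype in fibroblasts, 1 in basal-keratin cells and 1 in the interaction. In the basal-keratin cells 0.894% of all genes were called lower. For fibroblasts and the interaction the share over all genes is not given here, so those counts set no member apart. Cnn1 between mural cells and fibroblasts was 0.021 with rules at 4 UMIs, 0.19 by DESeq2 and 0.12 without TMM. Without TMM, Myl9 was 0.022 between Krt14/Krt5 cells and fibroblasts, the median of all genes moved from 0.04 to 0.19 there and from -0.04 to 0.16 between mural cells and fibroblasts, and genes called higher in mural cells rose from 44.3% to 61.6% of those called, in Krt14/Krt5 cells from 49.2% to 57.8% and in basal-keratin cells from 45.6% to 56.7%. The cause of these changes was not tested.

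When each library was left out in turn, 6 to 8 members were called between Krt14/Krt5 and mural cells, 3 to 5 between Krt14/Krt5 cells and fibroblasts, 0 to 1 by genotype in mural cells, 0 to 1 in fibroblasts and 0 to 7 in basal-keratin cells. By genotype in Krt14/Krt5 cells Acta2 ran from -2.66 to 0.31. Against fibroblasts, Acta2 in Krt14/Krt5 cells ran from -0.093 to 0.64, Myl9 from -0.57 to 0.18, Cnn1 in mural cells from -0.98 to 0.35 and Des in basal-keratin cells from -3.33 to 0.94. In basal-keratin against mural cells Myl9 ran from -0.049 to 0.58 and Mylk from -0.61 to 0.041. With the mouse as a replicate block, 8, 5, 5 and 7 members were called in Krt14/Krt5 against mural cells, Krt14/Krt5 cells against fibroblasts, mural cells against fibroblasts and basal-keratin against other Krt14/Krt5 cells, as without it. The block changed no other count of members. The genotype groups share no replicate number. A split of mural cells by pericyte markers could not be fitted, since too few mural cells lacked them. DESeq2 called 1610 genes by keratin balance, against 943. Of the fold changes of members that were followed, 27 lost a call with the direction kept and 31 gained one. By genotype only Acta2 was followed in Krt14/Krt5 cells, Acta2 and Myh11 in mural cells, and Acta2 and Cnn1 in basal-keratin cells. In the interaction Acta2 and Tagln were followed. Calls gained by other members in the genotype fits are not in these counts. Depth limits Cnn1 and Oxtr in mural cells and Des outside them, which rest on few UMIs.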
